A study of Homo sapiens with 18 samples.

Results

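Cells of the human embryonic kidney line HEK293, made to overexpress TLR5 of the mouse, were exposed for 60 min to flagellin of Salmonella Typhimurium SL1344 (ST) and compared with mock-treated cells of the same line. The comparison takes 6 of the study's 18 Affymetrix Human Gene 2.1 ST arrays, which were chosen by their titles: 3 of the ST group and 3 of the mock group at 60 min, lettered A, B and C and called biological replicates. It covers 16111 genes, each with a row of exactly 1 gene symbol that passed a filter on low values. The other 12 arrays hold mock and ST cells at 120 min and cells given flagellin of E. coli Nissle (EcN) at both times. All groups carry the murine TLR5 construct and were grown to passage 7 for SILAC, in which cultures receive light, medium or heavy isotopes of lysine and arginine, and flagellin was given at an amount matched to a multiplicity of infection of 10. The sources used here do not say which array had which isotope, so isotope label and flagellin cannot be told apart. The labels conflict for the ST arrays: title, source name and treatment field name ST, and the description field names mock. The titles were followed. It is also not given whether A, B and C were cultured separately or derive from several clones. The p-values measure only the spread between arrays of a group, taken over all 18 arrays.

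TLR5 is the cell surface receptor for bacterial flagellin, the subunit of the flagellar filament. It signals through the adaptor MyD88, IRAK kinases and TRAF6 to the IkB kinases and the MAP kinases, which switch on NF-kB and AP-1 target genes within the first hours. Interferon-stimulated genes form another program: type I and type III interferons act through JAK kinases and a transcription factor complex that includes IRF9 and binds a promoter motif called the interferon-stimulated response element. Values below are log2 levels from RMA, a method that normalizes arrays to one another and summarizes probes. Changes are log2 differences, ST minus mock, ± SE from a limma fit, and a gene is said to have risen or fallen only where its adjusted p (Benjamini-Hochberg over the 16111 genes) was under 0.05.

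Of the 16111 genes, 848 differed between ST and mock at 60 min, which is 5.26% of those tested. Of these, 360 rose (2.23%) and 488 fell (3.03%). Changes of at least 2-fold were fewer, with 41 genes higher and 25 lower, and 14 of those 41 were antiviral effectors of the interferon response. The 3 ST values and the 3 mock values did not overlap for 847 of the 848 genes, which the test itself favours. Over all genes tested they did not overlap for 4861 (30.2%). Separate groups are therefore mentioned below as a description and add no support to a call. The median change over all genes tested was 0.00. An unadjusted p under 0.05 in limma was reached by 1644 higher and 1975 lower genes of the 16111. Counts at that threshold for lists below stand beside these. The number of calls moved with each of the 6 arrays: 529, 126 and 79 genes were called without mock A, B and C, and 151, 238 and 133 without ST A, B and C. A core of 50 genes, 30 higher and 20 lower, was called in the fit of all arrays and in each of these 6 fits, and 10 of the 30 were on the antiviral effector list.

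**Figure D1:**
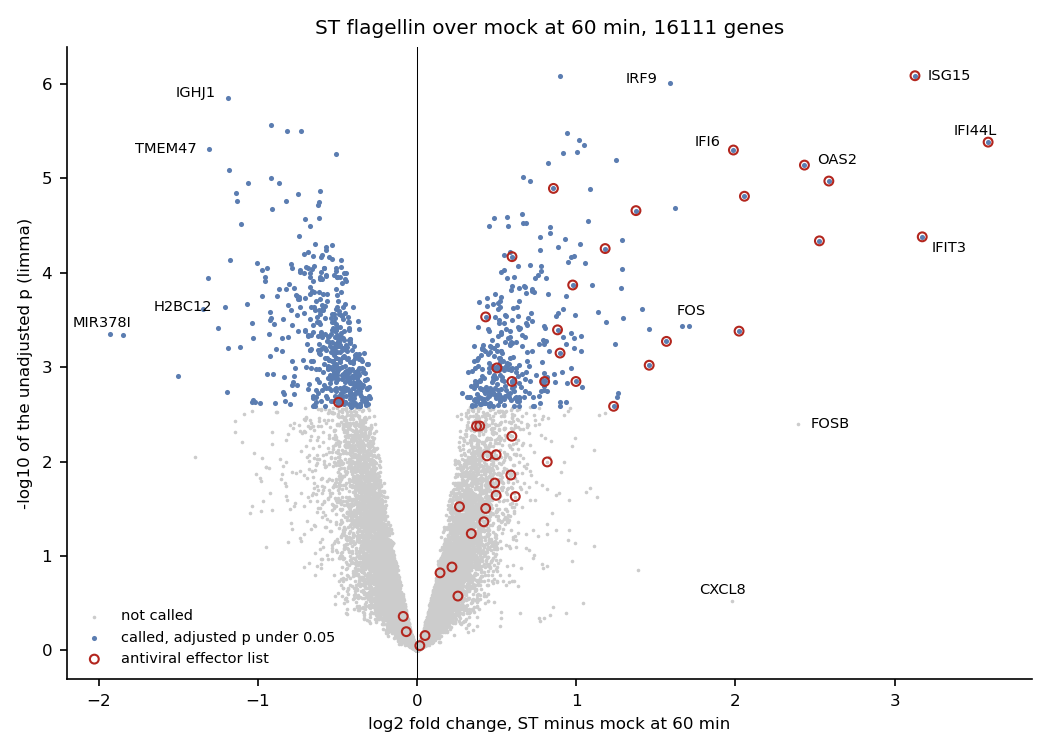
Each point is 1 of 16111 genes, with the log2 fold change of ST over mock at 60 min on the x axis and the −log10 of limma's unadjusted p on the y axis. The 848 called genes are blue and the 46 tested antiviral effectors are ringed in red. The effectors ISG15 and IFI44L lie farthest to the upper right, while CXCL8 has a change of 1.98 with a p far from the threshold.

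Array C of the ST group stood apart from the other 5 arrays of this comparison. On it, 29 genes lay more than 1 log2 unit above all the other arrays, against 2 on ST A, 3 on ST B and 0, 5 and 3 on mock A, B and C. Its leading genes were the NF-kB targets CXCL8, NFKBIZ, TNFAIP3 and CXCL2, with gaps of 5.09, 2.99, 2.93 and 2.69 to the next highest array. The C arrays of the other flagellin groups were high too: CXCL8 stood at 5.62 on EcN 60 min C, against 2.35 and 2.52 on A and B, and at 8.76 on ST 120 min C, while mock C was not high at either time. Correlations over all genes were 0.9907 to 0.9928 between arrays of a group and 0.9856 to 0.9898 between groups. Without ST C, 133 genes were called (0.826%), 67 higher (0.416%) and 66 lower (0.41%), and 123 of them were among the 848. The main gene groups below are therefore given with and without that array. A call lost without ST C does not by itself tie a gene to that array. The count fell as far without mock B (126) and mock C (79), and nearly as far without ST A (151).

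The antiviral effectors, the proteins that block viral replication in cells exposed to interferon, held the largest increases of the comparison. Of 50 genes on the list, 46 were tested, 24 rose and 1 fell, beside the 2.23% and 3.03% over all genes. Their median change was 0.60, against 0.00 over all genes, and 43 of the 46 lay above 0. Of the 4 not tested, PARP14, DDX60 and RTP4 were under the filter and TRIM25 had no row of its own symbol. The mean level of the 46 genes lay between 4.88 and 4.99 on the mock arrays and between 5.80 and 5.98 on the ST arrays. An array reads a culture as a whole, so more responding cells and more RNA per cell cannot be told apart. ST C did not stand apart here, with a mean of 5.97 beside 5.80 on ST A and 5.98 on ST B. Without it the median change was again 0.60, while 12 effectors were called higher and 0 lower. The number called higher was 17, 11 and 12 without mock A, B and C, and 14 and 13 without ST A and B.

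The 4 effectors with the highest changes carry matches to the core of the interferon-stimulated response element, read here as GAAANNGAAA on either strand, in the 250 bases before their start in RefSeq (GRCh38.p14). They are shown because these genes moved together and because that motif is where the complex with IRF9 is known to bind. The sequences read 5′ to 3′ on the plus strand, which is the strand of all 4 genes, with the matches in capitals. The windows are chr1:78620198-78620447 for IFI44L, chr10:89327747-89327996 for IFIT3, chr1:1013247-1013496 for ISG15 and chr1:78649539-78649788 for IFI44.
IFI44L: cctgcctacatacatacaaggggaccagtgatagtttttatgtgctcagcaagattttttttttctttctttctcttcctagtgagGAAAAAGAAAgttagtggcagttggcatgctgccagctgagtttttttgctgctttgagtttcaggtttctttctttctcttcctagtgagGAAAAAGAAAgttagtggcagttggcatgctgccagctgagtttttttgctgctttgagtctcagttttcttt
IFIT3: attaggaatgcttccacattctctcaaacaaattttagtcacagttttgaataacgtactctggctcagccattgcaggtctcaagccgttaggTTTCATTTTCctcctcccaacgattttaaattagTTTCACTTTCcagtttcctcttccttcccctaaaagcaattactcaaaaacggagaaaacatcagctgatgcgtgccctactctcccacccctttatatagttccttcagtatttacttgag
ISG15: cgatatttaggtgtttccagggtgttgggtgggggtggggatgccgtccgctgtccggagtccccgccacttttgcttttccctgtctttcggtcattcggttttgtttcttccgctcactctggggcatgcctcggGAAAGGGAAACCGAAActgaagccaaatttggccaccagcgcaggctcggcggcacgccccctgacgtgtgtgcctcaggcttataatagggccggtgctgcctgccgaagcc
IFI44: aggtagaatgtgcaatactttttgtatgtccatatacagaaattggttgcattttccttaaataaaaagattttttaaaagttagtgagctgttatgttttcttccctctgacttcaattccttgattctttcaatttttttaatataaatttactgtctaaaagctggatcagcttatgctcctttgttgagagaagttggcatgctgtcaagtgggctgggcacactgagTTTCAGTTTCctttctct

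The first base of the matches lay 164 and 73 bases before the start of IFI44L. In IFIT3 they lay 156 and 122 bases before the start, in ISG15 113 and 107 bases, where the pair overlaps, and in IFI44 18 bases. Over windows of 300 bases, from 250 before to 50 after the start, a match was present in 3.57% of the 35116 windows in RefSeq and in 459 of the 12157 tested genes with a window (3.78%). It was present in 31 of 282 genes that rose (11.0%) and 12 of 383 that fell (3.13%). Of the genes that rose at least 2-fold, 10 of 26 with a window held one (38.5%). Among the effectors it was present in 16 of the 22 that rose and had a window (72.7%), and in 9 of the 15 others (60.0%). These 16, like the 10 at 2-fold, are among the 31 above, so the shares are not independent. The list holds known interferon-stimulated genes, chosen with earlier results of these data known. The shares are therefore a description and add no support to a call. A match is a run of letters, not a measured binding site.

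IFI44L (transcript cluster 16666485), an interferon-induced gene with antiviral activity, had levels of 3.15, 2.81 and 2.65 on mock A, B and C and 6.30, 6.55 and 6.52 on ST A, B and C. The groups were separate by more than 3 log2 units, and the rise of 3.59 ± 0.53 was a 12-fold difference (adjusted p = 0.00551). IFI44 (16666509), its neighbour on chromosome 1, stood at 2.54, 1.61 and 2.27 in mock and at 4.49, 4.89 and 4.80 with ST. All 3 ST arrays again lay above all 3 mock arrays, and the rise was 2.59 ± 0.41 (adjusted p = 0.00699).

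ISG15 (16657594), a ubiquitin-like protein that is joined to viral and cellular proteins, stood at 3.18, 3.19 and 3.79 in mock and at 6.41, 6.5 and 6.62 with ST. The spread within each group was under 1 log2 unit and the rise was 3.13 ± 0.41. UBE2L6, the conjugating enzyme of ISG15, had levels of 4.38, 3.72 and 4.18 in mock and 4.79, 5.59 and 5.60 with ST. ST A was the lowest of the 3 and nearest to the mock arrays, and the rise of 1.24 ± 0.35 was called at an adjusted p = 0.0496. USP18, which removes ISG15 from proteins and restrains the interferon receptor, changed by 0.27 ± 0.11 and did not pass the test (adjusted p = 0.168).

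The IFIT family, RNA-binding proteins that hold back translation of viral RNA, had 4 members called, all of them higher. IFIT3 (16707184) stood at 2.94, 2.45 and 2.96 in mock and at 5.69, 6.34 and 5.85 with ST, a rise of 3.17 ± 0.57. IFIT1 rose by 1.57 ± 0.36, IFIT2 by 0.88 ± 0.20 and IFIT5 by 0.86 ± 0.14. The groups overlapped for none of these 4, as for 847 of the 848 called genes. The mock levels of IFIT2, 1.78 to 1.99, lay under the array medians of 2.27 to 2.32, so IFIT2 entered the test through other arrays. IFIT genes resemble one another in sequence, and the array may not keep them fully apart.

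The OAS synthetases make the second messenger 2-5A, which activates the RNA-degrading enzyme RNase L. OAS1 (16757324) stood at 2.70, 2.13 and 2.51 in mock and at 4.89, 5.10 and 4.94 with ST, and rose by 2.53 ± 0.46. OAS2 stood at 2.58, 2.44 and 2.64 in mock and at 4.35, 5.29 and 5.33 with ST, and rose by 2.43 ± 0.38. OAS3 stood at 6.64, 6.37 and 6.52 in mock and at 8.37, 8.57 and 8.77 with ST, and rose by 2.06 ± 0.34. The 3 synthetases therefore each rose at least 4-fold, with no overlap between groups, as for 847 of the 848 called genes. The related OASL, which lacks synthetase activity, changed by 0.62 ± 0.25 and did not pass (adjusted p = 0.148).

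IFI6 (16684080), a mitochondrial antiviral protein, stood at 8.69, 8.73 and 9.07 in mock and at 10.68, 10.92 and 10.85 with ST. This rise of 1.99 ± 0.30 started from a high level, unlike those of IFI44L or OAS2, whose mock levels were near the array medians. IFI27 rose by 2.02 ± 0.46, the radical SAM enzyme RSAD2 (viperin) by 1.46 ± 0.36 and IFI35 by 1.38 ± 0.23. SAMD9L and SAMD9, which restrict poxviruses, rose by 1.18 ± 0.22 and 0.60 ± 0.16. The ADP-ribosyltransferase PARP9 and its partner DTX3L rose by 0.80 ± 0.21 and 1.00 ± 0.26. HELZ2, DDX60L, HERC6, the tetherin gene BST2 and LGALS3BP rose by 0.98, 0.90, 0.60, 0.50 and 0.43. PARP12, a zinc finger antiviral ADP-ribosyltransferase outside the list, rose by 1.25 ± 0.19 from 6.70 to 6.98 in mock to 8.05 to 8.13 with ST.

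LY6E was the effector that fell, from 4.76, 4.75 and 4.87 in mock to 4.02, 4.5 and 4.38 with ST, a change of -0.49 ± 0.14 (adjusted p = 0.0476). It is a membrane protein that limits entry of coronaviruses and aids that of some other viruses. Without ST C it did not pass (adjusted p = 0.0874). Of the 21 effectors that did not pass, MX1 came near, with 3.46, 2.99 and 3.44 in mock, 3.90, 3.83 and 3.95 with ST and a change of 0.60 ± 0.19 (adjusted p = 0.0696). CMPK2 changed by 0.82 ± 0.28 (adjusted p = 0.096), IFITM1 by 0.44 ± 0.15 (adjusted p = 0.0897) and IFITM3 by 0.42 ± 0.19 (adjusted p = 0.205). The rest included the nuclear body protein PML and the RNA editing enzyme ADAR.

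**Figure D2:**
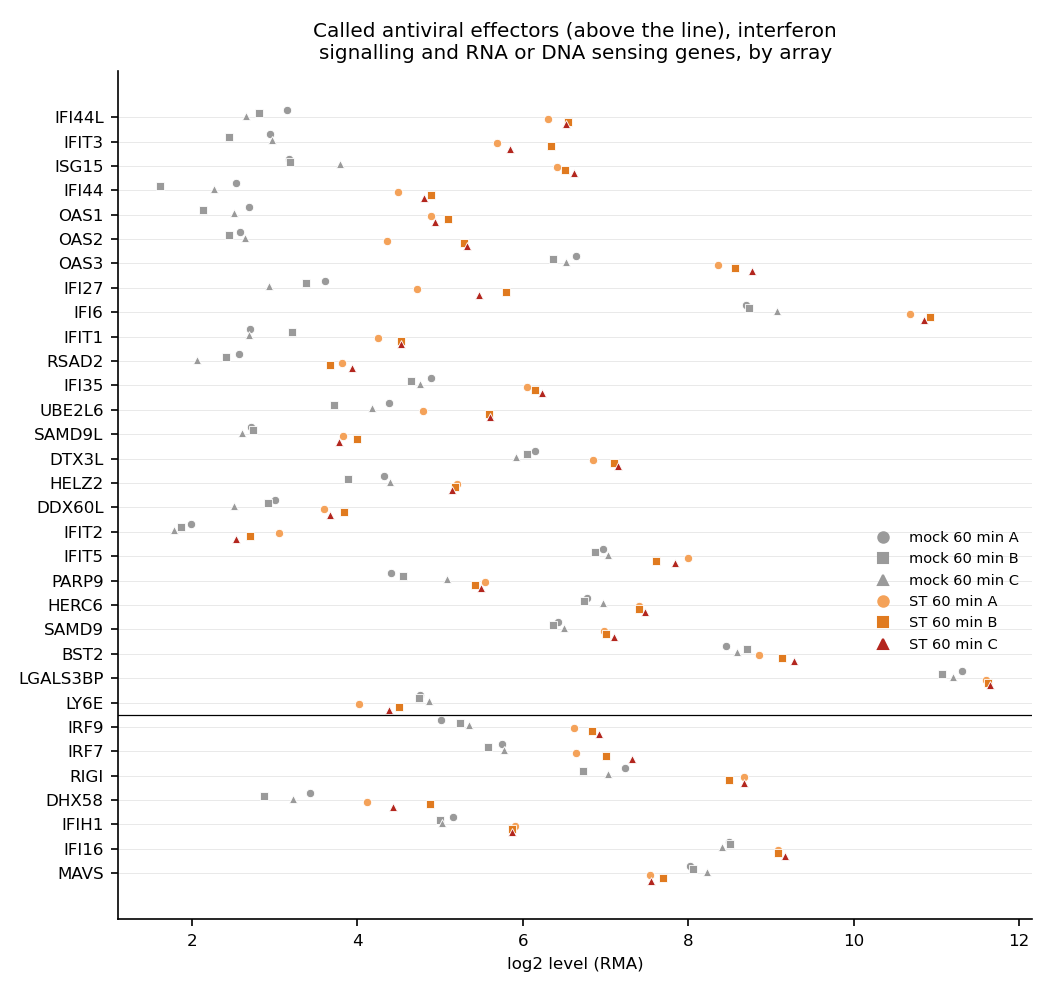
Each row is a gene and each point its log2 RMA level on 1 array, grey for the 3 mock arrays and orange to red for the 3 ST arrays at 60 min. Above the line are the 25 called antiviral effectors ordered by change, with LY6E last, and below it IRF9, IRF7 and the called sensing genes. In every row shown, the 3 ST points lie on one side of the 3 mock points, as for 847 of the 848 called genes.

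Of the factors that carry the interferon signal, 16 of 18 listed were tested, and 2 rose, IRF9 and IRF7, with a median of 0.05 for the list. IRF9 (16782687), a DNA-binding subunit of the complex that interferon activates, stood at 5.01, 5.25 and 5.35 in mock and at 6.62, 6.83 and 6.92 with ST. The groups lay more than 1 log2 unit apart, and the rise of 1.59 ± 0.21 had the smallest adjusted p of the comparison, 0.00532, which it shared with ISG15 and UPP1. IRF7 (16733995), which drives interferon transcription, stood at 5.75, 5.58 and 5.77 in mock and at 6.64, 7.01 and 7.32 with ST, and rose by 1.29 ± 0.23. It narrowly missed the threshold without ST C (adjusted p = 0.0507). IRF1 did not pass, with ST levels of 4.30, 4.07 and 5.03, of which C was the highest, against 3.71 to 4.0 in mock. The kinases JAK1 and TYK2 had changes of 0.07 and 0.19, and the receptor chain IFNAR1 had one of -0.34 ± 0.10 (adjusted p = 0.0614); none of the 3 passed.

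The interferon ligands themselves were scarcely measured. Of 9 listed genes 3 passed the filter, the type III interferons IFNL1, IFNL2 and IFNL3, and limma called 0 (1 at an unadjusted p under 0.05). IFNL1 had a change of 0.45 with overlapping groups. IFNB1, IFNA1, IFNA2, IFNK, IFNE and IFNW1 lay under the filter. IFNL2 stood at 3.72, 3.44 and 3.84 in mock and at 3.99, 3.93 and 4.52 with ST (adjusted p = 0.0856). Those groups did not overlap, and ST C was the highest.

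Of 9 tested genes for sensing RNA or DNA in the cytosol, 4 rose and 1 fell, beside 2.23% and 3.03% over all genes. RIGI (17093090), which recognises viral RNA with a triphosphate end, stood at 7.24, 6.72 and 7.02 in mock and at 8.68, 8.50 and 8.68 with ST, and rose by 1.62 ± 0.27. IFIH1, the sensor MDA5 for long double-stranded RNA, stood at 5.16, 4.99 and 5.02 in mock and at 5.90, 5.87 and 5.87 with ST, and rose by 0.82 ± 0.13. Both were separate between the groups on every array. DHX58, a relative of these that tunes their signal, rose by 1.29 ± 0.28 and the DNA sensor IFI16 by 0.64 ± 0.14. MAVS, the mitochondrial adaptor that RIGI and IFIH1 act through, fell from 8.02, 8.05 and 8.23 to 7.53, 7.70 and 7.55, a change of -0.51 ± 0.12 (adjusted p = 0.0259). RIGI and IFIH1 were called in each fit without 1 of the 6 arrays, while DHX58, IFI16 and MAVS did not pass without ST C (adjusted p = 0.0602, 0.0721 and 0.0787). TLR3, which senses double-stranded RNA in endosomes, had a change of 0.18, with overlapping groups, and did not pass.

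Class I antigen presentation shows peptides to CD8 T cells. Of 16 tested genes 3 rose (18.8%, beside 2.23% of all genes), with a list median of 0.18, and 0 were called without ST C. HLA-B stood at 4.28, 4.24 and 4.11 in mock and at 5.14, 5.02 and 5.28 with ST, a rise of 0.94 ± 0.19, although HLA class I genes are near-identical and reads of a probe may come from relatives. B2M, the light chain, rose by 0.39 ± 0.11 and the peptide-trimming enzyme ERAP2 by 0.36 ± 0.08. The transporter TAP1 changed by 0.22 ± 0.09 and did not pass (adjusted p = 0.183), nor did the immunoproteasome gene PSMB8 (-0.25 ± 0.18). The number called higher was 2 without mock A, 1 without ST B and 0 without mock B, mock C, ST A or ST C.

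Immediate-early genes, which are transcribed within minutes of a stimulus without new protein, formed the other group with large increases. Of 28 tested, 6 rose (FOS, EGR1, EGR3, ATF3, IER5 and KLF6) and 0 fell, or 21.4% beside 2.23% higher over all genes, and the list median was 0.54. The mean level over the 28 genes was 6.34 to 6.43 on the mock arrays and 6.755, 6.781 and 7.67 on ST A, B and C. On mock 120 min A, B and C, with no flagellin, it was 7.086, 6.879 and 6.769, within the range of the ST arrays at 60 min. The list median of ST over mock was -0.01 at 120 min. FOS (16786587), a subunit of AP-1, stood at 5.72, 5.21 and 5.14 in mock and at 6.54, 6.67 and 7.97 with ST. EGR1 (16989736), a zinc finger factor downstream of ERK, stood at 9.27, 9.05 and 8.89 in mock and at 10.33, 10.35 and 11.52 with ST. For both genes ST A and B lay about 1 log2 unit above the mock arrays and ST C a further log2 unit higher. The rises were 1.71 ± 0.38 for FOS and 1.67 ± 0.37 for EGR1 (both adjusted p = 0.0223), and 1.25 and 1.27 without ST C, where neither passed (adjusted p = 0.0782 and 0.0814).

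EGR3, a relative of EGR1, stood at 5.25, 4.62 and 4.52 in mock and at 6.05, 5.87 and 6.83 with ST, and rose by 1.46 ± 0.33. ATF3, a stress-induced factor that restrains inflammatory genes, stood at 5.36, 5.47 and 5.40 in mock and at 6.40, 6.20 and 7.41 with ST, and rose by 1.26 ± 0.34. IER5 rose by 0.99 ± 0.23 and KLF6 by 0.92 ± 0.21. The groups did not overlap for any of these 6 genes, as for 847 of the 848 called genes. Without ST C, 0 of the 28 were called and the median was 0.24. The number was 4, 0 and 0 without mock A, B and C, and 3 and 4 without ST A and B. JUN, the partner of FOS, stood at 9.40, 9.68 and 9.66 in mock and at 10.12, 10.32 and 11.22 with ST and came near the threshold (adjusted p = 0.079). FOSB stood at 5.96, 5.11 and 4.84 in mock and at 6.84, 6.78 and 9.47 with ST (adjusted p = 0.0606), so that its groups were also separate, with ST C far above. MYC stood at 7.40, 7.52 and 7.43 in mock and at 7.08, 6.96 and 7.94 with ST, so that ST A and B lay below the mock arrays and ST C above them, and it did not pass (adjusted p = 0.774).

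The MAP kinases are switched off by feedback inhibitors that their own targets encode. Of 15 tested, DUSP10, a phosphatase of p38 and JNK, rose by 0.40 ± 0.10, and SPRED2, which restrains RAF activation, fell by 0.55 ± 0.14 on the log2 scale. Neither was called without ST C (adjusted p = 0.0992 and 0.119). DUSP1, the fast-acting phosphatase, stood at 9.02, 9.60 and 9.27 in mock and at 9.66, 9.62 and 11.24 with ST. Its high value was that of ST C, and the change of 0.88 ± 0.42 did not pass (adjusted p = 0.229).

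Inhibitors and chemokines of the NF-kB response, the best known output of TLR5, were high on ST C and not on ST A or B. Of 19 tested NF-kB subunits and feedback inhibitors limma called 0. At an unadjusted p under 0.05 there were 3 higher and 1 lower, beside 1644 and 1975 of all 16111 genes. The list median was 0.22, or -0.10 without ST C. TNFAIP3 (17012946), the ubiquitin-editing inhibitor A20, stood at 6.55, 6.52 and 6.54 in mock and at 6.19, 6.25 and 9.48 with ST. NFKBIA (16791991), which encodes IkB alpha, stood at 8.82, 8.62 and 8.59 in mock and at 8.43, 8.30 and 10.85 with ST. NFKBIZ, an inducible nuclear IkB protein, stood at 4.61, 4.64 and 4.52 in mock and at 4.66, 4.27 and 7.65 with ST. On ST A and B, TNFAIP3 and NFKBIA lay below all 3 mock arrays, and on ST C more than 2 log2 units above them. The mean over the 3 ST arrays therefore describes none of them: the changes were 0.77 ± 1.10 for TNFAIP3 and 0.52 ± 0.85 for NFKBIA, and -0.31 for each without ST C. Over the list, the mean level was 5.87, 5.81 and 6.59 on ST A, B and C, 5.79, 5.76 and 6.26 on EcN 60 min A, B and C, and 5.89 to 5.96 on the mock arrays, so C was the high array with both flagellins.

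The same split held for the secreted mediators. CXCL8 (16967771), the chemokine that draws neutrophils, stood at 2.16, 2.70 and 2.35 in mock and at 2.39, 2.84 and 7.92 with ST. TNF stood at 3.0, 3.05 and 2.65 in mock and at 2.72, 2.93 and 5.55 with ST. CXCL2, CXCL10 and CCL20 reached 6.46, 4.86 and 3.53 on ST C, against at most 3.78, 3.05 and 1.85 on the other 5 arrays. Of 21 tested chemokines and cytokines 1 was called, the T cell chemokine CCL5. It stood at 2.98, 2.93 and 2.63 in mock and at 3.55, 3.30 and 3.61 with ST, so that all 3 ST arrays shared the rise of 0.64 ± 0.18 (adjusted p = 0.0469). It did not pass without ST C (adjusted p = 0.135) or without any other of the 6 arrays. The adhesion molecule gene SELE stood at 4.49 on ST C and at 1.48 to 2.05 elsewhere.

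The chemokine and cytokine list had a mean level of 2.83, 2.97 and 3.75 on ST A, B and C and of 2.86, 2.85 and 3.44 on EcN 60 min A, B and C. A list of other NF-kB targets did not follow this split fully. Its mean was 5.39, 5.38 and 5.87 on ST A, B and C, so that A and B also lay above the mock arrays (5.14 to 5.21), and its median was 0.20 with ST C and 0.24 without it. The list mean was 5.37, 5.37 and 5.48 on EcN 60 min A, B and C. On mock 120 min A, B and C, with no flagellin, the list mean was 6.08, 5.39 and 5.35, so B and C stood near ST A and B. Of its 15 tested genes 1 was called, GADD45A (6.67%).

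The TLR5 pathway itself did not differ by the test. Of 20 tested components limma called 0. At an unadjusted p under 0.05, 2 were higher and 6 lower with ST, beside 1644 higher and 1975 lower of all 16111 genes. The list median was -0.06, with 8 members above 0. Human TLR5, whose row does not measure the murine construct, stood at 4.02, 3.60 and 3.32 in mock and at 3.73, 3.79 and 3.96 with ST, so the groups overlapped (0.18 ± 0.18). MYD88 stood at 5.00, 4.86 and 4.98 in mock and at 4.56, 4.62 and 4.52 with ST. Its groups did not overlap, and its change of -0.38 ± 0.13 did not pass (adjusted p = 0.0899).

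**Figure D3:**
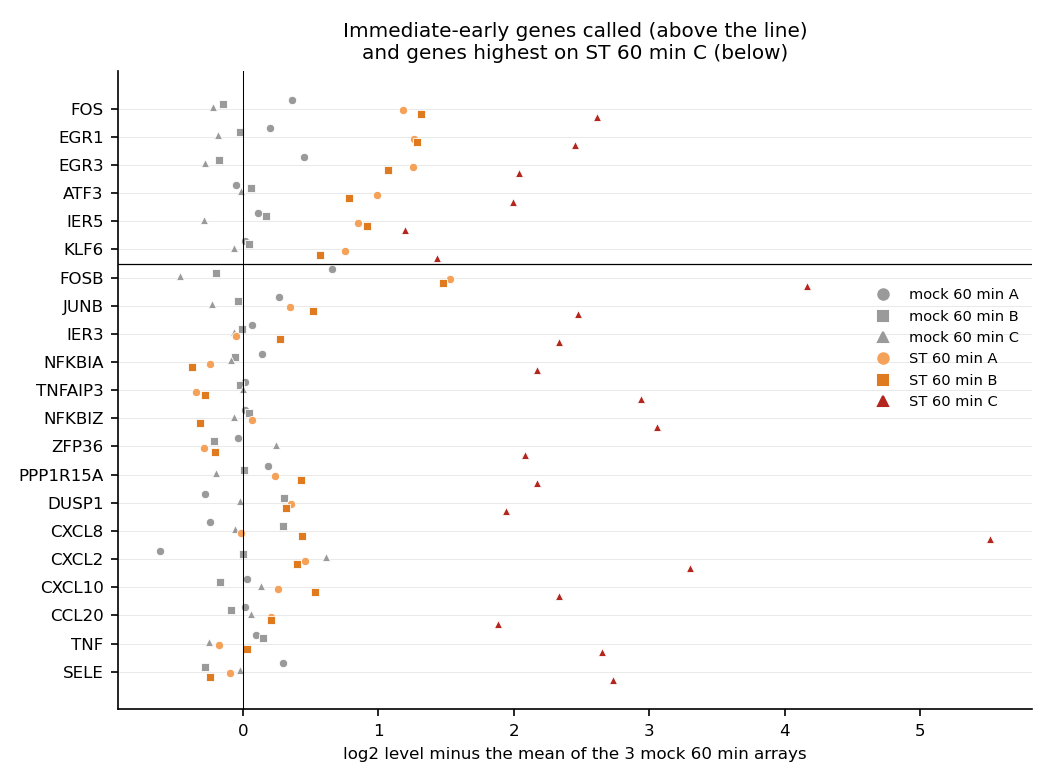
Each row is a gene and each point 1 array at 60 min, placed by its log2 level minus the mean of the 3 mock arrays. For the 6 called immediate-early genes above the line, all 3 ST arrays lie above the mock arrays. For NFKBIA, TNFAIP3, CXCL8 and TNF below it, ST C alone lies more than 2 units above the mock mean.

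Several stress genes rose. Of 19 tested p53 targets 4 rose (21.1%, beside 2.23% of all genes), with a median of 0.31, and 1 was called without ST C. GDF15 (16859795), a secreted stress cytokine, stood at 6.17, 5.86 and 6.49 in mock and at 7.26, 7.70 and 7.39 with ST, and rose by 1.28 ± 0.26 (adjusted p = 0.0164, or 0.051 without ST C). GADD45A, a growth arrest gene that is also an NF-kB and stress target, stood at 7.01, 6.73 and 7.20 in mock and at 8.0, 7.90 and 8.12 with ST, and rose by 1.03 ± 0.19. It was the member called without ST C (adjusted p = 0.0487). The oxidoreductase TP53I3 and the DNA repair gene XPC rose by 0.70 ± 0.15 and 0.47 ± 0.12. The central targets CDKN1A and MDM2 did not pass, at 0.24 ± 0.12 and -0.13 ± 0.11. The number called higher was 3, 0 and 2 without mock A, B and C, and 2 and 1 without ST A and B.

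In the unfolded protein response with ATF4 targets, 4 of 23 tested genes rose (17.4%, beside 2.23%). CRELD2, an endoplasmic reticulum chaperone, stood at 5.05, 4.87 and 4.54 in mock and at 5.61, 5.51 and 5.49 with ST, and rose by 0.71 ± 0.11. It was called in each of the 6 fits without 1 array, and it was the 1 member called in each. The disulfide isomerase PDIA4, the transcription factor XBP1 and the serine synthesis enzyme PHGDH rose by 0.41, 0.40 and 0.38. The chaperone HSPA5 did not pass (adjusted p = 0.913). Limma called 0 of the 8 heat shock proteins tested. At an unadjusted p under 0.05, 2 were higher and 1 lower, beside 1644 and 1975 of all 16111 genes. Of 13 listed, HSPA1A, HSPA1B, HSPA8, HSPD1 and HSPE1 had no row of their own symbol and were not tested.

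Metal and oxidative stress genes went different ways. MT1F, a metallothionein, fell from 7.24, 7.60 and 7.38 in mock to 6.02, 6.20 and 6.69 with ST, a change of -1.11 ± 0.19, and was called in each fit without 1 array. Its relative MT2A had a change of -0.11 ± 0.12. HMOX1, the heme-degrading enzyme, rose by 0.48 ± 0.13 (adjusted p = 0.0495) and did not pass without ST C (adjusted p = 0.172). The other 14 of these 16 genes did not pass.

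Of 18 tested sterol genes, IDI1, an enzyme of isoprenoid synthesis, stood at 6.09, 6.10 and 5.91 in mock and at 6.79, 6.68 and 6.69 with ST, and rose by 0.69 ± 0.14. INSIG1, which holds the sterol regulator SREBP in the endoplasmic reticulum, stood at 9.17, 9.06 and 9.16 in mock and at 9.71, 9.80 and 9.75 with ST, and rose by 0.62 ± 0.17. SC5D, a late enzyme of cholesterol synthesis, fell by 0.59 ± 0.15 on the log2 scale. Without ST C none of the 3 passed (adjusted p = 0.0515, 0.104 and 0.0992). On this list 1 gene was called without mock A and 1 without ST B, and 0 without mock B, mock C or ST A. The mean level of the 18 genes was 7.609 to 7.761 on the mock arrays and 7.765 to 7.813 with ST. It was 7.865 to 7.967 with EcN at 60 min and 7.729, 7.871 and 7.944 on mock 120 min A, B and C. The list median was 0.03 for ST and 0.18 for EcN over mock at 60 min. In the SMAD and BMP list of 12, the inhibitor SMAD7 fell from 7.89, 8.33 and 8.23 to 7.36, 7.23 and 7.21, a change of -0.88 ± 0.21, and ID4, an inhibitor of helix-loop-helix factors, rose by 0.61 ± 0.15. Both missed the threshold without ST C (adjusted p = 0.0785 and 0.0705).

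Among ribosome biogenesis factors 2 of 24 rose, GRWD1 by 0.81 ± 0.16 and the rRNA methyltransferase NOP2 by 0.41 ± 0.10. GRWD1, which assists ribosome assembly and histone deposition, stood at 8.82, 8.98 and 8.96 in mock and at 9.84, 9.70 and 9.67 with ST. It passed without ST C (adjusted p = 0.0473). Of 25 amino acid transporters and tRNA synthetases, the lysyl enzyme KARS1 and the transporter chain SLC3A2 rose by 0.38 and 0.35, and the glutaminyl enzyme QARS1 fell by 0.34 on the log2 scale. These counts, as well as 1 of 32 cell cycle genes (the checkpoint kinase BUB1, -0.43 ± 0.11), stand beside a background of 5.26%. Without ST C, 1 ribosome biogenesis factor and 0 genes of the transport and synthetase and cell cycle lists were called. In the lists of hypoxia and glycolysis (18 genes) and of Notch, Wnt and YAP targets (17 genes) limma called 0, with 3 and 4 genes at an unadjusted p under 0.05. Over all 16111 genes, 1644 were higher and 1975 lower at that threshold.

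Some of the largest changes lay outside these pathways. ESRRA, an orphan nuclear receptor that drives genes of mitochondrial metabolism, stood at 4.79, 3.98 and 3.98 in mock and at 5.76, 5.36 and 5.87 with ST, and rose by 1.41 ± 0.30 (adjusted p = 0.0192, or 0.068 without ST C). UBALD1 fell from 8.77, 8.90 and 8.88 to 7.58, 7.87 and 8.08, a change of -1.01 ± 0.19, and passed without ST C (adjusted p = 0.0278). Both had separate groups, as did 847 of the 848 called genes. The pseudogenes HSP90AB3P and SH3GL1P1 and the small RNA copies RNU5A-8P and RNA5SP496 fell by 1.07, 1.02, 1.25 and 1.11 on the log2 scale, and each has near-identical relatives that the array may not keep apart.

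**Figure D4:**
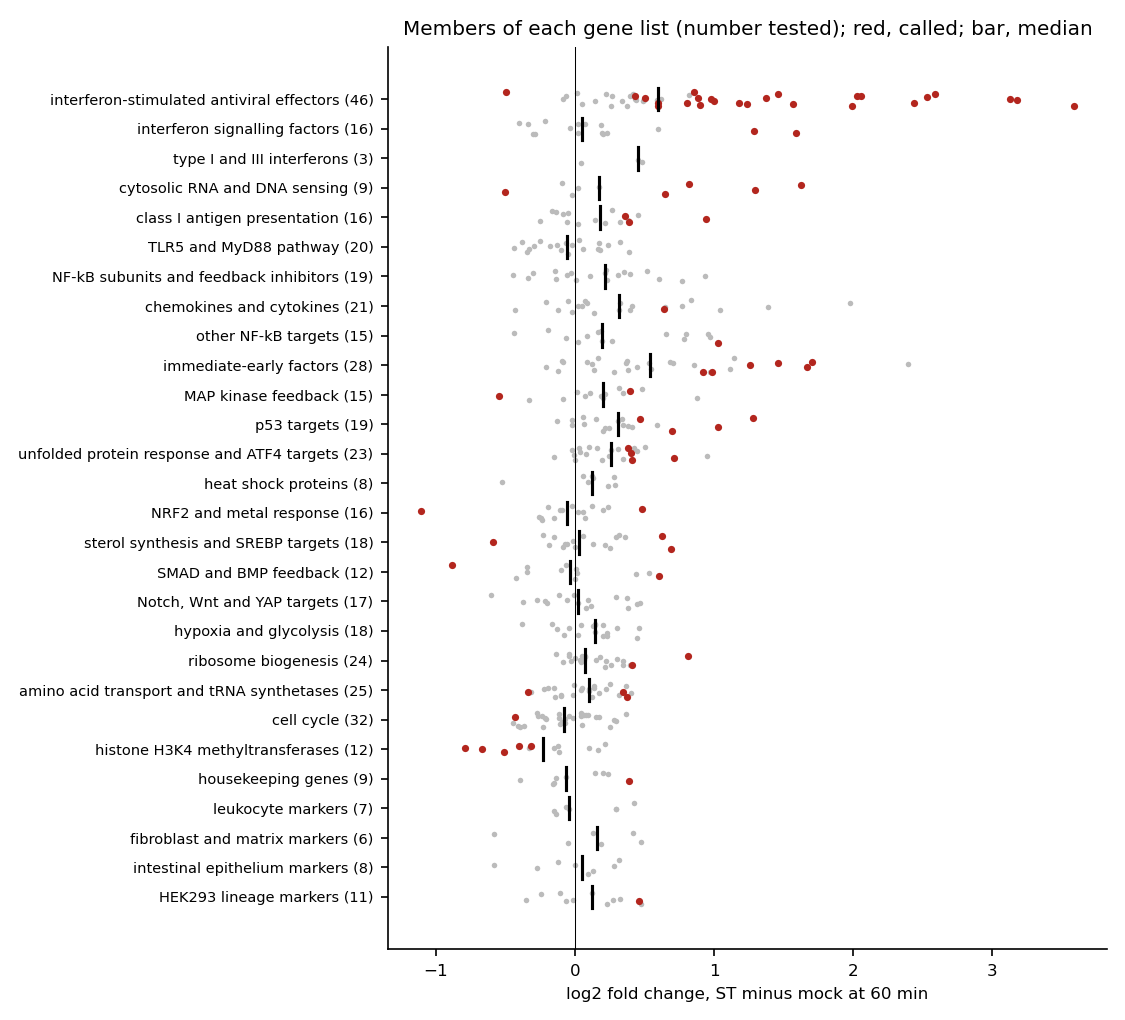
Each row is a gene list with its number of tested members, and each point is a member's log2 fold change of ST over mock at 60 min. Called members are red and the bar marks the list median, with vertical jitter for display. The antiviral effectors have a median of 0.60 and reach 3.59, immediate-early factors have a median of 0.54, and the H3K4 methyltransferases are the list with 5 members called lower and 0 higher.

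Genes that fell by at least 2-fold included TMEM47, SLC10A5, HOXB8 and SDHAF3. TMEM47 (17110040), a protein of cell junctions, stood at 8.26, 8.47 and 8.65 in mock and at 7.35, 7.33 and 6.78 with ST, and fell by 1.31 ± 0.20 on the log2 scale. SLC10A5, an orphan member of the bile acid transporter family, stood at 5.10, 5.16 and 5.15 in mock and at 3.53, 3.88 and 4.07 with ST, and fell by 1.31 ± 0.26. HOXB8, a homeobox factor of body patterning, stood at 5.69, 5.75 and 5.68 in mock and at 4.73, 4.44 and 4.53 with ST, and fell by 1.14 ± 0.19. The ST arrays lay more than 0.9 log2 units below mock for HOXB8 and SLC10A5, and C was the lowest ST array for TMEM47. SDHAF3, an assembly factor of succinate dehydrogenase, fell by 1.13 ± 0.19.

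TMEM47, HOXB8 and SDHAF3 belong to the 20 genes that were called lower in each fit without 1 array. Others of these, named after their values were seen, were the developmental transcription factors ZIC2 and SALL1 and the receptor BMPR2. ZIC2 stood at 7.68, 7.69 and 7.92 in mock and at 6.95, 6.87 and 7.0 with ST, a change of -0.82 ± 0.14. SALL1, a zinc finger factor of kidney development, stood at 7.73, 7.79 and 7.74 in mock and at 7.03, 7.04 and 6.94 with ST, a change of -0.75 ± 0.12. BMPR2, the type II receptor for bone morphogenetic proteins, changed by -0.62 ± 0.10, and the Polycomb gene PCGF2 by -0.74 ± 0.13. Among the 30 called higher in each fit were the signalling ligand WNT9A, with 4.96, 4.76 and 4.92 in mock and 5.89, 6.04 and 5.93 with ST, and UPP1, a uridine phosphorylase, with a change of 0.90 ± 0.12.

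Histone H3K4 methyltransferases write a mark of active promoters and enhancers. The list joins genes named for these enzymes with subunits of their complexes. Of 12 genes on the list, all tested, 5 were called (41.7%), and these 5 fell, beside 3.03% lower over all genes. SETD1B (16758163), a catalytic subunit of a COMPASS complex, stood at 8.41, 8.46 and 8.48 in mock and at 7.66, 7.62 and 7.69 with ST, a change of -0.79 ± 0.19. KMT2D, which acts at enhancers, stood at 7.32, 7.48 and 7.43 in mock and at 6.66, 6.70 and 6.85 with ST, a change of -0.67 ± 0.14. The arrays of each group lay within 0.2 log2 units of one another and the groups were separate. SETD1A, KMT2E and KMT2C fell by 0.51, 0.40 and 0.32 on the log2 scale. The shared subunits WDR5, RBBP5, ASH2L and DPY30 did not pass, with changes of -0.15, 0.16, 0.21 and -0.12. The number called lower was 2, 0 and 0 without mock A, B and C, and 0, 0 and 1 without ST A, B and C, the last being KMT2D. The mean level over the 12 genes was 8.17 to 8.23 on the mock arrays and 7.89 to 7.98 on the ST arrays. It was 7.945 to 8.001 on the EcN arrays at 60 min. On mock 120 min A, B and C, with no flagellin, it was 8.088, 8.034 and 7.872, below all mock arrays at 60 min. The list median of ST over mock was -0.23 at 60 min and 0.02 at 120 min. What sets the mock arrays at 60 min apart was not tested.

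Replication-dependent histone genes, whose transcripts end in a stem-loop in place of a poly(A) tail, had 4 of 21 called lower and 1 higher (23.8% in all, beside 5.26% over all genes). H2BC12 (17016457) stood at 9.80, 10.29 and 10.73 in mock and at 9.03, 9.01 and 9.15 with ST, a change of -1.21 ± 0.26. H2BC14 changed by -1.19 ± 0.32, H2BC13 by -1.18 ± 0.22 and H2AC21 by -0.36 ± 0.10, while H2BC21, which also has a polyadenylated form, rose by 0.76 ± 0.21. H2BC genes are near-identical, so the array may not separate them. The list median was -0.05, and 0 were called without ST C, 1 each without mock B, ST A and ST B, 2 without mock A and 0 without mock C.

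**Figure D5:**
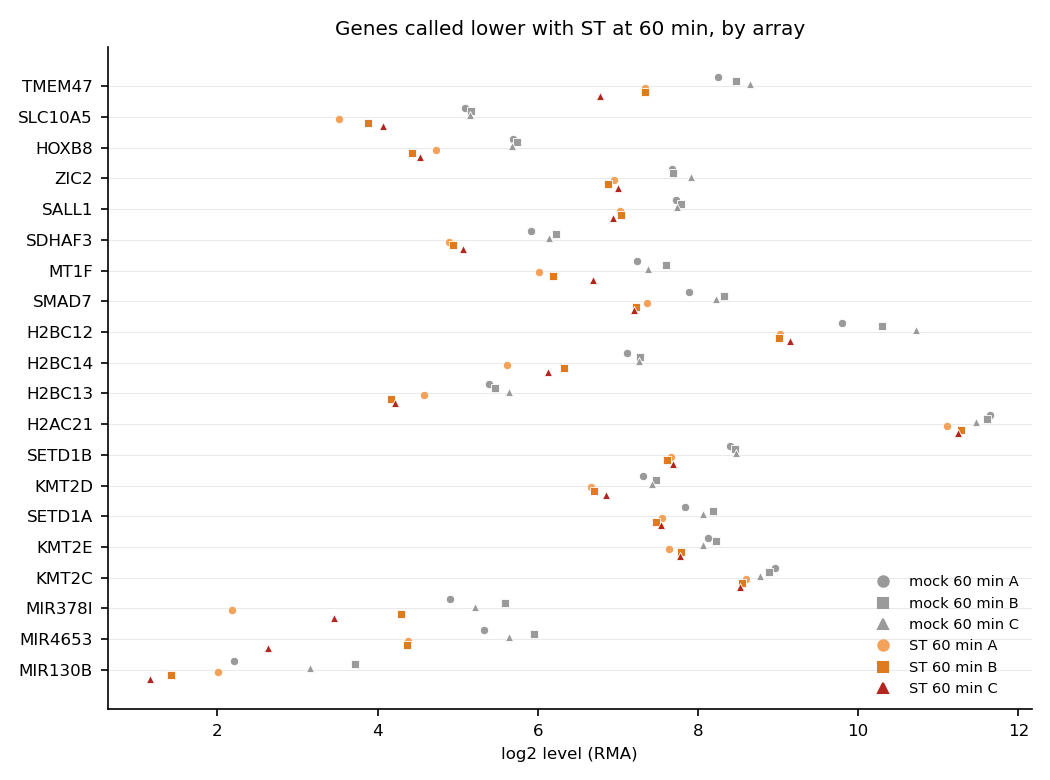
Each row is a gene called lower with ST and each point its log2 RMA level on 1 of the 6 arrays at 60 min, grey for mock and orange to red for ST. In every row the 3 ST points lie below the 3 mock points, with wide spreads within groups for the microRNA precursors and narrow ones for SETD1B and HOXB8. Such separation held for 847 of the 848 called genes.

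The array started from total RNA, and its microRNA rows may read precursors or host transcripts besides mature molecules. Of 326 microRNA precursors tested, 3 rose and 8 fell, which is 3.37% beside 5.26% over all genes. Among these 11, MIR21 rose at least 2-fold and MIR378I, MIR4653, MIR130B, MIR4677 and MIR3978 fell at least 2-fold. The mature sequences of 4 are shown, with bases 2 to 8 (the seed, which pairs with targets) in capitals, because these precursors had the largest changes or are the best known. They are from RefSeq (GRCh38.p14).
hsa-miR-21-5p: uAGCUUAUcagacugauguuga
hsa-miR-378i: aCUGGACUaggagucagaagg
hsa-miR-130b-3p: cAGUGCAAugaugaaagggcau
hsa-miR-26a-5p: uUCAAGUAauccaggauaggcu

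The 15 mature sequences of the 11 precursors had 15 different seeds, so none was shared among them. MIR21, whose gene is a known target of AP-1, stood at 1.93, 2.07 and 1.49 in mock and at 3.36, 2.57 and 3.11 with ST, a rise of 1.19 ± 0.26. The mock values lay under the array medians. MIR378I stood at 4.90, 5.59 and 5.22 in mock and at 2.19, 4.29 and 3.46 with ST, a change of -1.93 ± 0.44 with the ST arrays spread over 2 log2 units. MIR130B stood at 2.21, 3.72 and 3.16 in mock and at 2.01, 1.43 and 1.16 with ST, and its ST values and that of mock A lay under the array medians. MIR26A1 fell by 0.63 ± 0.16 on the log2 scale. Without ST C, 0 were called higher and 2 lower (MIR3978 and MIR3132), and the counts without each other array ran from 0 to 3 higher and from 1 to 10 lower.

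Small nucleolar RNAs guide the modification of ribosomal RNA and lie mostly in introns of host genes. Of 58 C/D box RNAs 6 rose and 0 fell (10.3%), and of 69 H/ACA box and Cajal body RNAs 7 rose and 1 fell (11.6%), beside 5.26% over all genes. SNORD105 stood at 7.06, 6.82 and 6.46 in mock and at 7.75, 8.27 and 8.19 with ST, a rise of 1.29 ± 0.25. SNORA65, which lies in the ribosomal protein gene RPL12, stood at 5.24, 5.34 and 5.38 in mock and at 6.04, 6.19 and 6.25 with ST, and rose by 0.84 ± 0.15. RPL12 itself rose by 0.71 ± 0.18, and probes for a small RNA in an intron may also read its host's precursor. SNORA22 was the 1 that fell (-1.04 ± 0.29). Medians were 0.06 and 0.05, and without ST C 0 C/D box RNAs and 2 of the other class were called. Without each other array the counts of those called higher ran from 0 to 5 and from 1 to 4.

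Of 421 ZNF genes, which encode mainly zinc finger repressors, 12 rose and 6 fell (4.28%), and of 684 LINC and antisense transcripts 7 rose and 16 fell (3.36%), both beside 5.26% over all genes. The ZNF counts were 2 higher and 1 lower without ST C, and ran from 2 to 10 higher and from 0 to 5 lower without each of the other 5 arrays, lowest without mock C and ST A for those higher. The LINC and antisense counts were 4 higher and 4 lower without ST C, and ran from 1 to 5 higher (lowest without mock C) and from 1 to 12 lower (lowest without mock B). ZNF93 stood at 3.69, 3.74 and 3.36 in mock and at 4.66, 4.73 and 4.36 with ST, and rose by 0.99 ± 0.19. ZNF281 fell from 9.13, 9.27 and 9.55 to 8.39, 8.41 and 8.52. MAP3K20-AS1 stood at 1.86, 1.93 and 1.57 in mock, under the array medians, and at 2.52, 2.70 and 3.39 with ST, and rose by 1.09 ± 0.18. ZSCAN16-AS1 fell from 6.78, 6.46 and 6.68 to 5.33, 5.64 and 5.40. The arrays of both groups were separate for these 4, as for 847 of the 848 called genes. Whether antisense probes also read the sense gene was not tested. Of 52 cytosolic ribosomal protein genes 2 rose (RPL12 and RPS6, 3.85%), and of 69 respiratory chain subunits 1 rose (NDUFB2) and 1 fell (NDUFB11). Without ST C, 0 of either list were called.

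ACTB and GAPDH did not differ by the test, at -0.14 ± 0.26 and -0.15 ± 0.11, and B2M was the 1 of 9 housekeeping genes called. Markers of other cell types gave 0 calls in limma among 7 leukocyte, 6 fibroblast and matrix and 8 intestinal genes that passed the filter. At an unadjusted p under 0.05 there were 1, 2 and 2, beside 1644 higher and 1975 lower of all 16111 genes. The mean level of the leukocyte markers lay between 3.70 and 4.02 on the mock arrays and between 3.77 and 3.99 on the ST arrays, and PTPRC, CD3E, LYZ and ITGAM lay under the filter. Fibroblast markers lay between 3.27 and 3.47 in mock and between 3.29 and 3.57 with ST, and intestinal markers between 5.30 and 5.41 and between 5.29 and 5.34. Of 14 HEK293 lineage markers 11 were tested, while SOX11 and DLK1 lay under the filter and HOXA9 had no row of its own symbol. The mean level of the 11 lay between 5.79 and 5.94 on the mock arrays and between 5.88 and 6.03 with ST. Among them, PAX2 stood at 5.71 to 6.03 and VIM at 7.61 to 8.39 over the 6 arrays. Of the 11, 1 rose, KRT18, by 0.46 ± 0.12.

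At 120 min the ST effect over its own mock group was smaller in the median. The 360 genes that rose at 60 min had a median change of 0.59 then and 0.27 at 120 min, and the 488 that fell had medians of -0.52 and -0.19. These genes were chosen by their values at 60 min, and the medians are a description with no test. The sign was the same at 120 min for 298 of the 360 and 429 of the 488. Tested gene by gene, the change of the ST effect from 60 to 120 min was called for 0 of 16111 genes (0.0%), with 1731 at an unadjusted p under 0.05 and a smallest adjusted p of 0.31. Without mock 120 min A it was called for 475 genes (2.95%), 180 higher and 295 lower, and 99 of these were among the 848. CXCL8 stood at 7.53 on that array and at 2.46 and 2.26 on mock 120 min B and C, and at 2.90, 2.72 and 8.76 on ST 120 min A, B and C. The part of these arrays in the results at 120 min beyond leaving out mock A was not tested.

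The genes called in that fit included both programs, but no other single array left out gave calls. Mock 120 min A had the lowest mean over the 46 effectors of its group, 4.865, against 5.305 and 5.304 on B and C. Leaving it out raises the mock mean of such genes at 120 min, which by itself makes their ST effect smaller there. EGR1 stood at 9.80, 10.99 and 10.84 on mock 120 min A, B and C and at 9.41, 9.51 and 10.02 on the ST arrays, so that 2 ST arrays lay below all mock arrays: the ST effect was 1.67 ± 0.37 at 60 min and -0.90 ± 0.37 at 120 min. The change of -2.56 ± 0.53 had an adjusted p = 0.31 with all arrays and 0.0116 without mock 120 min A. IFI44L stood at 2.25, 4.84 and 4.83 on mock 120 min A, B and C and at 6.03, 6.17 and 6.49 with ST, so the ST levels matched those at 60 min while mock B and C were about 2 log2 units higher than at 60 min. Its change of -1.33 ± 0.75 became -2.19 without mock 120 min A (adjusted p = 0.0293). IRF9, IFIT3 and INSIG1 also had smaller ST effects at 120 min, with changes of -1.17, -2.41 and -1.16 in that fit (adjusted p = 0.0148, 0.0271 and 0.0094). SMAD7, SLC10A5 and KMT2D, which fell at 60 min, had effects of 0.03, -0.22 and 0.03 at 120 min, and their changes were called in that fit (adjusted p = 0.0333, 0.0203 and 0.0405). ISG15, OAS2, IRF7 and GRWD1 had ST effects of 2.5, 2.15, 1.42 and 0.86 at 120 min, and their changes did not pass in either fit.

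EcN flagellin at 60 min was compared with the same mock arrays, so its effects share those values with the ST effects. For IFI44L, ISG15, EGR1 and FOS the EcN effects were 2.86, 1.92, 1.83 and 1.45, beside 3.59, 3.13, 1.67 and 1.71 for ST. The direct test of ST against EcN called 0 of 16111 genes (0.0%), with 1481 at an unadjusted p under 0.05. CHST9, a sulfotransferase gene, had the smallest adjusted p of that test, 0.0729. It stood at 5.49, 5.5 and 5.41 in mock, 5.55, 5.5 and 5.55 with EcN and 5.01, 4.44 and 4.21 with ST, so that only the ST arrays lay lower. MAP3K20-AS1 had the same form upward, at 1.76, 1.93 and 1.91 with EcN and 2.52 to 3.39 with ST, and did not pass (1.00 ± 0.18, adjusted p = 0.229). Its mock and EcN values at 60 min lay under the array medians. For ISG15 the EcN arrays stood at 4.22, 5.91 and 5.79, and the difference of 1.20 ± 0.41 between the flagellins did not pass (adjusted p = 0.401). The mean level of the 46 effectors was 5.29, 5.88 and 5.85 on EcN A, B and C, and EcN A lay below both of its replicates and all 3 ST arrays.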

How the data were processed

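RNA of 18 samples was hybridised to Affymetrix Human Gene 2.1 ST arrays, with 3 arrays in each of 6 groups. The deposited table holds log2 values from 0.17 to 13.62 for 53617 transcript clusters, normalized by the authors with RMA (oligo 1.30.0), per the submitters' processing notes. Scanner files were not used here, so background and saturation per probe are unknown. Of the rows, 23871 had 1 gene symbol, 1842 several and 27904 none here, and 655 symbols were updated through RefSeq.

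Kept were genes that exceeded the median level of an array in 3 or more of the 18 arrays, with 1 row per gene (highest mean over all arrays), which left 16111. Limma 3.58.1 in R 4.3.3 fitted all 18 arrays with a mean per group (12 residual and 4.20 prior degrees of freedom), with Benjamini-Hochberg adjustment over all genes and calls at 0.05. The number of arrays limits the precision. The fit was tested on simulated data.

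The comparison, the lists and the named genes were chosen with earlier results of these data known. Named were, in each direction, the 25 called genes of largest change, list members that were called or among the 5 largest, a few control genes, and the genes that set 1 ST array apart. Other named genes are marked as such, or are list members given to show what did not pass. Alternatives left out single arrays or changed the filter, scaling or variance model. Motifs and mature microRNAs come from RefSeq tables.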

Additional observations from a re-analysis of the deposited data

Results flagged for a closer look

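Rows that carry several gene symbols or none in the annotation used here were kept out of every comparison above. Tested in a fit of their own, 13332 of them passed the filter and 126 differed between ST and mock at 60 min in limma (Benjamini-Hochberg, 0.945%), 58 higher and 68 lower. They stand out only as a signal in data that the comparison did not use, and no gene is named from them.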

How the results depend on the processing

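The count of 848 genes called for ST over mock at 60 min comes from a fit of all 18 arrays. Fitted with the ST and mock arrays at 60 min alone, the count was 598, with 273 higher and 325 lower. With all 18 arrays it was 1330 with a trended and robust variance, 1957 with array weights and 44 at an adjusted p under 0.01. Asking also for a change of at least 1.5-fold brought the count to 362. It was 32 without the arrays lettered C of all groups and 84 without those and mock 120 min A. Leaving out 1 of the 18 arrays at a time gave 79 (without mock 60 min C) to 1362 (without mock 120 min C). The cause was not tested. Deviations from the group means of ST and mock arrays at 60 min with the same letter had correlations of 0.035, -0.041 and -0.002 for A, B and C, so the letters were not taken as pairs for that comparison, and with the letter as a replicate block 662 genes were called. Between ST and EcN at 60 min they were 0.052, 0.094 and 0.141, and between ST at 60 and 120 min 0.06, 0.102 and 0.23, all above 0 but not all over 0.1; with the replicate block both of those tests again called 0 genes. In all 4 flagellin groups C was the array with the highest mean over the NF-kB subunits and inhibitors. The share of calls that were higher was 42.5% and lay between 50.4% and 54.3% without mock 60 min B or C, ST 60 min A or ST 60 min C.

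For the change of the ST effect from 60 to 120 min, the count of 0 became 475 without mock 120 min A and 1 without that array and all arrays lettered C, and the other single arrays left out gave 0. For ST over EcN it became 1 with a trended and robust variance, with array weights, with the stricter filter and without EcN 60 min C or ST 60 min A, and was 0 in the other settings run.

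Among the genes followed across these settings, which leave out named genes given with no change, the changes whose sign turned were those of 5 NF-kB targets that were high on ST 60 min C and that of human TLR5, none of them called. Leaving out 1 array at a time gave changes of -0.31 to 0.97 for NFKBIA, -0.31 to 1.33 for TNFAIP3, -0.13 to 1.56 for NFKBIZ, -0.17 to 1.32 for SELE and -0.073 to 1.34 for TNF, each lowest without ST 60 min C. Without all arrays lettered C, alone or with mock 120 min A, the values were -0.35, -0.31, -0.16, -0.18 and -0.20 for these 5 genes and -0.049 for TLR5. Of the 848 genes, 798 lost the call without at least 1 of the 6 arrays compared.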
